A study of Homo sapiens with 15 samples.

Results

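FKBP5 was taken as the loops that touch its promoter in chromatin contact maps of LNCaP cells, an androgen-responsive human prostate cancer cell line. A loop belonged to FKBP5 where at least 1 of its 1 kb anchors came within 2.5 kb of the start of the canonical transcript, ENST00000357266. This gave 22 of the 505995 different loops, and 30 loops touched an upstream start of the same gene, with 1 loop that joined both starts. Contact was measured by HiChIP, in which DNA ends that lie close together in the nucleus are joined and the joined pieces are then pulled down with an antibody to a histone mark and sequenced, here H3K27ac or H3K4me3. All cells were kept for 3 days in phenol red-free medium with charcoal-stripped serum, which holds little steroid. They then received 10 nM dihydrotestosterone (DHT), the main androgen of the prostate, for 30 m, for 4 h, for 16 h or for 72 h, and control cells received ethanol vehicle (0 m). The labels give 2 samples per time point for H3K27ac and 1 for H3K4me3, but each loop had a single value for each mark and time, so no spread between replicates could be measured and no p-value is given. LNCaP is a single cell line, and all samples came from it.

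FKBP5 encodes FKBP51, an immunophilin that binds HSP90 through tetratricopeptide repeats and sits in the chaperone complexes of steroid receptors. It is well known to respond to androgens in prostate cells and to glucocorticoids in many tissues. The glucocorticoid receptor binds as a dimer to an inverted repeat of a short half-site with a spacer of 3 bases, often far from the start of the gene that responds. H3K27ac marks active enhancers and promoters, whereas H3K4me3 marks mainly active promoters. A HiChIP contact therefore reads the mark at the anchors as well as the contact between them, and these could not be told apart in the values used here.

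FKBP5 lies on the minus strand at chr6:35541362-35696360 (hg19), so that upstream is towards higher coordinates. The canonical transcript starts at position 35656692, and a further transcript starts at 35656719 and had the same loops. The upstream start at 35696360 belongs to ENST00000536438. Below are the 300 bases from 250 before to 50 after the canonical start, chr6:35656643-35656942 (hg19, minus strand), with the first transcribed base in capitals.
Canonical start: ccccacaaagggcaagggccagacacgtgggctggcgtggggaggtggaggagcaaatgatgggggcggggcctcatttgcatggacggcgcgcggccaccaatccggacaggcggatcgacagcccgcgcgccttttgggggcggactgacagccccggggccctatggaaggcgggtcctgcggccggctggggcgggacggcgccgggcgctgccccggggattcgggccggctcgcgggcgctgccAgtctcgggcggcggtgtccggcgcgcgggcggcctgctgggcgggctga
These bases held 76.0% G or C and 38 CG dinucleotides.

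The study designed 9 CRISPR guides at this locus, 3 against the promoter and 3 against each of 2 sites named ARBS1 and ARBS2, and their targets are shown because they place the strongest partner of the FKBP5 promoter. Each guide of 20 letters matched the GRCh37 sequence at 1 place, and the 3 capitals are the adjacent PAM bases read from the genome.
FKBP5_ARBS1 guide 1: cttgctgagggctgtgaatgTGG
FKBP5_ARBS1 guide 2: cacgaggttctgcaccatctGGG
FKBP5_ARBS1 guide 3: aacggatcattataatgtctTGG
FKBP5_ARBS2 guide 1: aagaaggcagaagggatcttGGG
FKBP5_ARBS2 guide 2: ccaactaaatacattacgtcTGG
FKBP5_ARBS2 guide 3: tcactcagccctatcacccaAGG
FKBP5_promoter guide 1: cagctggccaggttagccctAGG
FKBP5_promoter guide 2: taagatgcccagtcgggactGGG
FKBP5_promoter guide 3: gtcactgggtgtccagagggAGG
The promoter guides lie at chr6:35657126-35657248, 434 to 556 bp upstream of the canonical start. The ARBS1 guides lie at chr6:35690156-35690586 and the ARBS2 guides at chr6:35691268-35691615, which is 33.5 to 34.9 kb upstream of the canonical start and downstream of the upstream start. All 6 ARBS guides fell in a single 5 kb bin, chr6:35690001-35695000, in intron 1 of the long transcript and outside the canonical transcript. The promoter guides fell in the bin of the promoter anchor, chr6:35655001-35660000.

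Motifs were searched on both strands of the 22 partner bins and of all 210061 different anchor bins. The loose steroid receptor element, spelled GNACANNNTGTNC, occurred in 2 of the 22 partner bins and in 6.51% of all bins. One match lay in the partner bin at the 3′ part of the gene, GTACAAAATGTTC at chr6:35552456-35552468. The other bin was that of the upstream start, with GAACACAATGTCC at chr6:35695891-35695903 and GAACATCCTGTGC at chr6:35699796-35699808. The bin of the promoter itself held GAACACACTGTCC at chr6:35655535-35655547, 1.15 kb downstream of the canonical start (all hg19, plus strand). The full element, spelled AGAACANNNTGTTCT, occurred in none of the 22 bins and in 0.104% of all bins. The ARBS bin held no match of the loose element. It held a stretch with 2 of the 12 given letters of the full element unlike, and a stretch with at most 2 unlike letters occurred in 11 of the 22 partner bins and in 30.3% of all bins. That search was added after the first had been seen. The stretch overlaps the target of ARBS1 guide 2, and is in capitals below, at chr6:35690269-35690368 (hg19, minus strand).
ARBS1: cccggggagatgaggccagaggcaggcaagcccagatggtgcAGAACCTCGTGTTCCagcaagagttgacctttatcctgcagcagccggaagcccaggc

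The forkhead motif TGTTTAC, the letters that FOXA1 and its relatives recognise, occurred in 9 of the 22 partner bins and in 53.2% of all bins. The ARBS bin held 3 matches, of which 2 lay within the stretch of the ARBS2 guides and are in capitals below, at chr6:35691321-35691620 (hg19, minus strand).
ARBS2: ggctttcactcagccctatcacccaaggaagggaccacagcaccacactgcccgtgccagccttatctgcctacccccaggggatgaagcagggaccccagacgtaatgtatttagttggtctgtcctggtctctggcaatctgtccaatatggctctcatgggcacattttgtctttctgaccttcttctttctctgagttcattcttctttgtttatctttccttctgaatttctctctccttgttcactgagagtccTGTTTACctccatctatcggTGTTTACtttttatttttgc
A core of the CTCF motif, spelled CCANNAGNNGGC, occurred in 4 of the 22 partner bins and in 14.8% of all bins. Those 4 included the bins of the upstream start and of the neighbouring ARMC12 promoter. A match is a match of letters only, and no binding was measured here.

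The deposited values were contact scaled by the authors among the time points of a mark, and each was a whole multiple of the value of 1 read pair, so read pairs were recovered. The 10 tables held between 2153262 and 10675614 read pairs, with H3K4me3 at 4 h the deepest. Of the genes that mark luminal prostate cells, KLK3, KLK2, TMPRSS2, HOXB13 and FOLH1 had loops, with a summed H3K27ac contact of 65.5 to 293 at 0 m. ALB of liver, CD3E of T cells and GFAP of astrocytes were between 0.294 and 8.82, and INS of the pancreas and PTPRC of leukocytes had 0 loops. Contact below is in the units of the authors' scaling (trimmed mean of M values, TMM). Intervals are 95% exact intervals of counting error and cover nothing else, and read pairs without molecular identifiers need not be independent molecules.

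Of 16266 protein-coding promoters with loops the median had 20 loops, and 46.1% had more than the 22 of FKBP5. The H3K27ac loop set held 9 of the 22 and the H3K4me3 set held 18, with 5 in both. A window of 1 kb, or the whole 5 kb bin in place of the 1 kb anchor, gave the same read-pair sums. The partner bins ran from 429.2 kb downstream to 505.8 kb upstream of the start. Of the 22, 6 lay in the gene body, 9 beyond its 3′ end, 4 between the canonical start and 10 kb past the upstream start, and 3 farther upstream. The 9 beyond the 3′ end included the promoter bins of ZNF76, DEF6, FANCE, RPL10A and TEAD3, and the 3 farther upstream included those of SRPK1 and BRPF3. FANCE encodes a Fanconi anaemia protein of DNA repair, RPL10A a ribosomal protein, TEAD3 a transcription factor of the Hippo pathway and SRPK1 a kinase of splicing factors.

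The summed H3K27ac contact of the FKBP5 promoter was higher at every time after DHT than before it. Summed over the 22 loops, it was 22.3 at 0 m and then 41.7, 34.2, 42.2 and 36.3 at 30 m, 4 h, 16 h and 72 h, from 76, 232, 160, 199 and 138 read pairs. The value at 0 m lay below all others, with an interval of 17.6 to 28.0 that overlapped none of theirs. The change against 0 m was 1.87-fold at 30 m (1.44 to 2.46), 1.53-fold by 4 h (1.16 to 2.04), 1.89-fold by 16 h (1.45 to 2.5) and 1.63-fold at 72 h (1.22 to 2.18). Among the times after DHT no pair differed beyond counting error, as the log2 difference of 4 h from 30 m was -0.29 (-0.59 to 0.01) and that of 16 h from 4 h was 0.31 (-0.002 to 0.61). The mean contact of all loops moved by 0.09, 0.07, 0.25 and 0.17 on the log2 scale at the same times, and with equal read-pair totals the FKBP5 log2 changes were 0.81, 0.55, 0.67 and 0.53. The median log2 change of the 22 single loops, with 1 added to each contact, was smaller than that of the sum, at 0.31, 0.27, 0.00 and 0.22.

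The H3K4me3 contact of the same loops was highest at 4 h and lowest at 72 h. It was 41.5 at 0 m, 37.6 after 30 m, 63.1 after 4 h, 43.3 after 16 h and 33.8 after 72 h, from 147, 110, 796, 224 and 123 read pairs. Against 0 m only the value at 4 h differed beyond counting error, at 1.52-fold (1.27 to 1.83). The log2 changes at 30 m, 16 h and 72 h were -0.14 (-0.51 to 0.22), 0.06 (-0.24 to 0.37) and -0.29 (-0.65 to 0.06), so that none exceeded counting error. The value at 72 h was also below that at 16 h, by a log2 difference of -0.36 (-0.69 to -0.03). The library at 4 h was also the deepest, with the mean of all loops 0.22 higher on the log2 scale, and with equal totals the FKBP5 change at 4 h was 0.38; the part of depth in it was not tested.

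**Figure D1:**
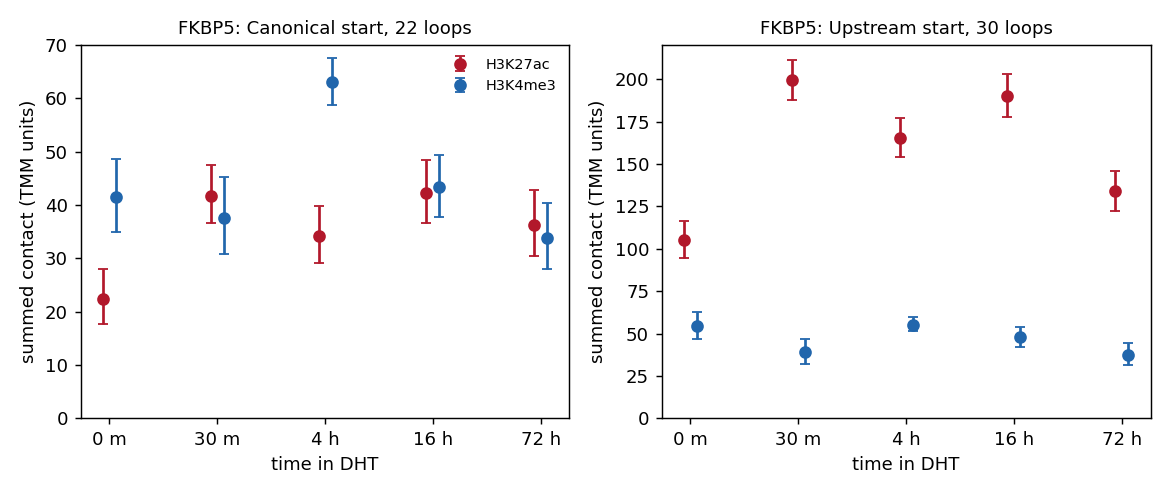
Summed contact (y axis, TMM units) of the 22 loops at the canonical FKBP5 start and the 30 loops at the upstream start by time in DHT (x axis), with 95% counting intervals as bars. At the canonical start the H3K27ac point at 0 m (22.3) lies below the other 4, and the H3K4me3 point at 4 h (63.1) above the other 4.

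Against all promoters, FKBP5 stood towards the upper end for H3K27ac. At least 50 read pairs over both time points were found at 11543 to 12063 promoters for H3K27ac. Of these, 18.8% were at least 1.5-fold higher at 30 m, 3.71% after 4 h, 18.5% after 16 h and 17.9% after 72 h, and FKBP5 was among them each time. At 4 h and 72 h this rests on the setting, as the log2 change was below 1.5-fold with equal totals (0.55 and 0.53) and without the strongest loop (0.52 and 0.45). At 16 h it was below 1.5-fold without the 2 strongest loops (0.41). The median over single loops was below it at 30 m and 16 h too (0.31 and 0.00). A higher log2 change than that of FKBP5 was seen at 3.62% of promoters at 30 m, 3.13% after 4 h, 5.79% after 16 h and 11.7% after 72 h. The median promoter changed by 0.27, 0.04, 0.16 and 0.17 on the log2 scale. For H3K4me3, 0.872% of promoters were at least 1.5-fold higher at 30 m, 14.7% after 4 h, 3.91% after 16 h and 1.39% after 72 h, and FKBP5 was among them at 4 h, but not with equal totals (0.38) or without the strongest loop (0.56). A higher H3K4me3 log2 change was seen at 78.3%, 13.5%, 59.9% and 68.3% of promoters, so that FKBP5 was near or below the middle at 30 m, 16 h and 72 h.

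The strongest loop over the 10 tables joined the promoter to the ARBS bin, 35.8 kb upstream, the bin that holds all 6 ARBS targets shown above. It was called in the H3K27ac set only. Its H3K27ac contact was 4.41 at 0 m and then 11.9, 8.55, 14.6 and 11.8 in time order, from 15, 66, 40, 69 and 45 read pairs. The lowest value was thus that without DHT, and the highest that at 16 h. The log2 changes were 1.43 (0.61 to 2.35), 0.96 (0.07 to 1.92), 1.73 (0.91 to 2.65) and 1.43 (0.56 to 2.38), all above counting error. The value at 16 h also exceeded that at 4 h, by 0.78 (0.19 to 1.38). The H3K4me3 contact of the same loop was 7.33, 6.49, 12.6, 8.51 and 4.40, from 26, 19, 159, 44 and 16 read pairs. Here 4 h was the highest, with a log2 change of 0.78 (0.18 to 1.44), and the value at 72 h lay below that at 16 h by a log2 difference of -0.95 (-1.88 to -0.10).

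The next loop, 40.8 kb upstream, joined the canonical start to the bin of the upstream start and was called in the H3K4me3 set only. Its H3K27ac contact was 6.76, 9.0, 8.33, 12.7 and 8.95 over the 5 times, from 23, 50, 39, 60 and 34 read pairs. It was the strongest loop at 0 m, and only the change at 16 h, 0.91 on the log2 scale (0.20 to 1.68), exceeded counting error. Its H3K4me3 contact was 6.20, 6.49, 9.35, 5.61 and 4.67, from 22, 19, 118, 29 and 17 read pairs, and no change exceeded counting error. Without the ARBS loop the H3K27ac log2 changes of the promoter were 0.74 (0.31 to 1.18), 0.52 (0.06 to 0.99), 0.62 (0.17 to 1.09) and 0.45 (-0.03 to 0.94), so that 72 h no longer exceeded counting error. Without both of these loops, an alternative chosen after seeing the data, they were 0.90 (0.36 to 1.47), 0.63 (0.06 to 1.23), 0.41 (-0.18 to 1.02) and 0.48 (-0.14 to 1.10), so that 30 m and 4 h still did and 16 h and 72 h did not.

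**Figure D2:**
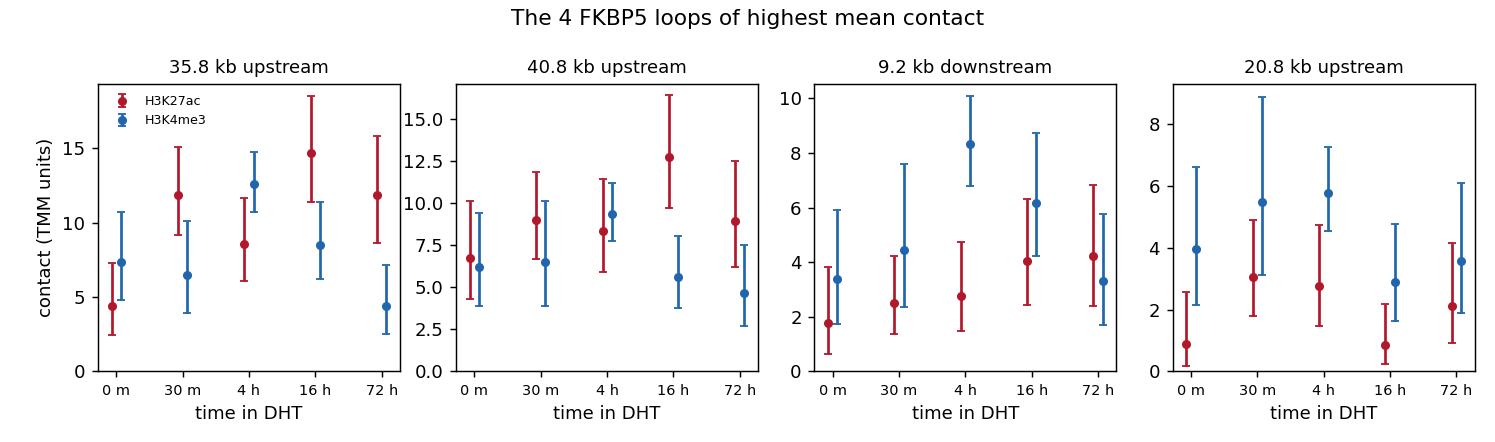
Contact (y axis, TMM units) of the 4 FKBP5 loops of highest mean contact by time in DHT (x axis), named by the distance of the partner bin from the canonical start, with 95% counting intervals as bars. In the first panel H3K27ac runs from 4.41 at 0 m to 14.6 at 16 h, whereas H3K4me3 is highest at 4 h (12.6).

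The third loop by mean contact ended 9.19 kb downstream of the start, in intron 1 of the canonical transcript. Its H3K27ac contact was 1.76, 2.52, 2.78, 4.03 and 4.21, from 6, 14, 13, 19 and 16 read pairs, and its H3K4me3 contact 3.38, 4.44, 8.32, 6.19 and 3.30, from 12, 13, 105, 32 and 12. Of its changes only that of H3K4me3 at 4 h, 1.30 (0.43 to 2.30) on the log2 scale, exceeded counting error. The fourth, 20.8 kb upstream in intron 2 of the long transcript, had an H3K27ac contact of 0.882, 3.06, 2.78, 0.849 and 2.11 and an H3K4me3 contact of 3.95, 5.47, 5.78, 2.90 and 3.57. It was as low in H3K27ac at 16 h as at 0 m, from 4 and 3 read pairs, after a log2 change of 1.79 (0.01 to 4.21) at 30 m. The interval of its log2 change at 16 h, -0.05 (-2.62 to 2.72), holds the changes of the first 3 loops. No difference from them was thus shown.

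The next 4 loops by mean contact also ended in the gene body, downstream of the start. The bin 104.2 kb downstream, which holds exon 8 of the canonical transcript, had H3K27ac contacts of 0.588, 2.70, 2.35, 1.06 and 0.526 from 2, 15, 11, 5 and 2 read pairs. The bin 84.2 kb downstream in intron 5 had 1.18, 1.62, 2.35, 1.06 and 0.789. Both were thus higher at 30 m or 4 h than at 72 h, but each value rests on 15 read pairs or fewer, and of these changes only that of the exon 8 bin at 30 m, 2.20 (0.09 to 5.37) on the log2 scale, exceeded counting error. The bin 59.2 kb downstream in intron 3 had 0.588, 2.52, 1.5, 2.97 and 2.37 from 2, 14, 7, 14 and 9 read pairs, and its log2 change at 16 h was 2.34 (0.22 to 5.52). The bin 24.2 kb downstream in intron 1 had 1.47, 1.62, 0.214, 0.849 and 1.84, with no change beyond counting error. In H3K4me3 these 4 loops lay between 1.02 and 3.33 at all times, and the bin 59.2 kb downstream was higher at 4 h by 1.56 (0.10 to 3.50) on the log2 scale. The last loop of the gene body, 39.2 kb downstream in intron 1, had H3K27ac contacts of 1.47, 1.62, 1.28, 1.27 and 1.05 and H3K4me3 contacts of 1.13, 0.342, 3.17, 2.51 and 2.47, of which that at 4 h was higher than 0 m by 1.49 (0.02 to 3.43) on the log2 scale.

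Together the 6 loops of the gene body had an H3K27ac contact of 7.05 at 0 m and then 12.6, 10.5, 11.3 and 10.8. The change exceeded counting error at 30 m only, at 0.84 (0.15 to 1.57) on the log2 scale, and was 0.67 (-0.05 to 1.43) at 16 h. The 4 loops between the starts and 10 kb past the upstream one had 13.8, 25.7, 20.7, 28.7 and 22.9, with log2 changes of 0.90, 0.59, 1.05 (0.56 to 1.56) and 0.73, all beyond counting error. The loop to the ARMC12 promoter bin, 50.8 kb upstream, was lower at 72 h than at 0 m, with H3K27ac contacts of 1.76, 1.80, 1.07, 0.425 and 0 from 6, 10, 5, 2 and 0 read pairs. Its log2 change at 16 h was -2.05 (-5.39 to 0.43), within counting error, whereas that at 72 h was -0.39 or below by its interval, and the count of 0 there allows a contact of up to 0.971. Its H3K4me3 contact lay between 1.37 and 1.74. The 12 loops farther out lay between 0 and 1.07 in H3K27ac and between 0 and 2.32 in H3K4me3. They held 5 of the 76 H3K27ac read pairs at 0 m and 11 of the 199 at 16 h, and their H3K27ac changes all had intervals that included 0. In H3K4me3 they were lower at 30 m, at -1.05 (-2.15 to -0.04) on the log2 scale from 30 and 12 read pairs.

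**Figure D3:**
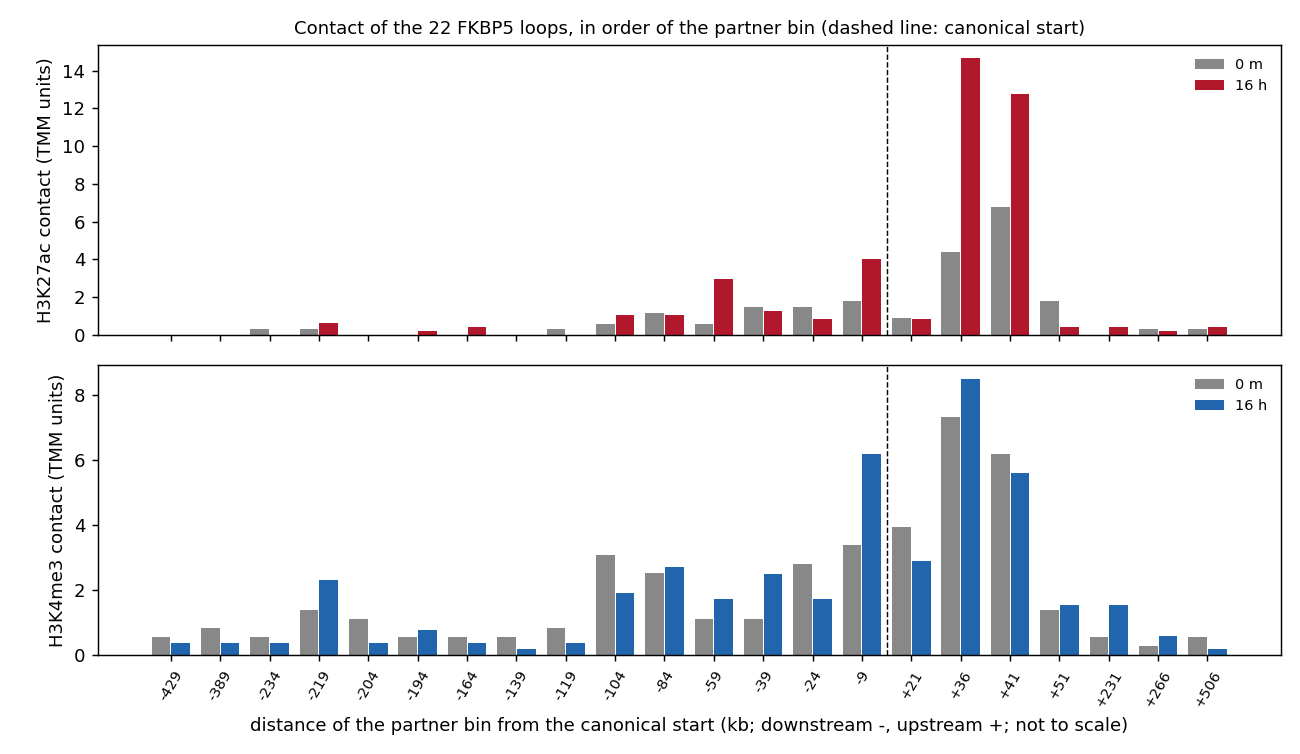
Contact (y axis, TMM units) of each of the 22 FKBP5 loops at 0 m (grey) and 16 h (coloured), ordered by the distance of the partner bin from the canonical start in kb (x axis, not to scale). In H3K27ac the bars at 36 and 41 kb upstream reach 14.6 and 12.7 at 16 h, and no other bar is above 4.03 at that time.

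Single loops were called higher or lower at 1.5-fold where they held at least 20 read pairs over both time points, which few FKBP5 loops did. In H3K27ac, 2 of 4 tested loops were higher at 30 m, 1 of 2 after 4 h, 3 of 3 after 16 h and 2 of 3 after 72 h, and 0 were lower. Over all loops tested, 27.1% were higher at 30 m, 20.8% after 4 h, 35.2% after 16 h and 31.0% after 72 h, and 14.3%, 10.7%, 14.2% and 15.0% were lower. In H3K4me3, 0 of 4 were higher at 30 m, 6 of 11 after 4 h, 1 of 6 after 16 h and 0 of 5 after 72 h, where 12.7%, 30.8%, 18.7% and 8.56% of all loops tested were higher. A single H3K4me3 loop was lower at 16 h, that to exon 8, and a single one at 72 h, that to the ARBS bin, against 9.06% and 21.5% of all loops tested. These counts are small and were not tested against those shares. The minimum is over both time points, so a loop can pass it mainly through the time at which it is high. The loop 20.8 kb upstream passed at 30 m in H3K27ac with 3 read pairs at 0 m and 17 at 30 m. In H3K4me3 the loop 59.2 kb downstream passed at 4 h, the deepest library, with 4 and 42. The same minimum was used for all loops tested and for the upstream start below.

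The H3K27ac contact of FKBP5 was held by few loops. The leading pair, the ARBS loop and the loop between the starts, held 15 and 23 of the 76 H3K27ac read pairs at 0 m (38.3 to 61.7%), 116 of 232 at 30 m (43.4 to 56.6%), 49.4% at 4 h (41.4 to 57.4), 64.8% at 16 h (57.8 to 71.4) and 57.2% at 72 h (48.5 to 65.6). In H3K4me3 the same pair held between 26.8% (72 h) and 34.8% (4 h). The Gini index over the 22 loops, which is 0 when all are alike and nears 1 when a single loop holds all contact, was 0.68, 0.65, 0.68, 0.76 and 0.73 for H3K27ac in time order, and 0.48, 0.63, 0.54, 0.53 and 0.50 for H3K4me3. Over the loops called in the H3K27ac set alone, the H3K27ac index at 16 h was 0.59. The study reports strongly unbalanced contact at promoters in general. The index was not computed here over all promoters, so it is not shown to be a trait of FKBP5. The strongest loop was that between the starts in H3K27ac at 0 m and in H3K4me3 at 72 h, both loops had 19 read pairs in H3K4me3 at 30 m, and the ARBS loop led in the other tables.

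The upstream start had more H3K27ac contact than the canonical one at all 5 times. Its 30 loops summed to 105.2 at 0 m and then 199.4, 165.4, 190.0 and 133.9, from 358, 1108, 774, 895 and 509 read pairs. The log2 changes were 0.92 (0.75 to 1.10), 0.65 (0.47 to 0.84), 0.85 (0.67 to 1.03) and 0.35 (0.15 to 0.55), so that 72 h was the lowest after DHT. Its H3K4me3 contact was 54.4, 38.9, 55.2, 47.7 and 37.4, with log2 changes of -0.48 (-0.83 to -0.14), 0.02, -0.19 and -0.54 (-0.87 to -0.22). The H3K4me3 values at 30 m and 72 h thus lay below 0 m beyond counting error, whereas those of H3K27ac lay above it.

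Much of the H3K27ac contact of the upstream start came from neighbouring bins. The loop from the upstream start to the adjacent ARBS bin, at 5 kb the shortest that was allowed, had H3K27ac read pairs of 124, 508, 298, 412 and 221 and a log2 change of 1.26 (0.97 to 1.56) at 16 h. Over all 28409 loops of 5 kb the H3K27ac log2 change was 0.69 at 16 h, but 0.29 at 30 m, 0.26 at 4 h and 0.50 at 72 h. For loops over 20 and up to 50 kb, the class of both leading loops of the canonical start, it was 0.06 at 16 h. The next loop, to the bin on the other side at the ARMC12 promoter, had 58, 207, 145, 160 and 102 read pairs. The 27 loops over 5 kb that did not reach the canonical start had H3K27ac log2 changes of 0.46 (0.18 to 0.74), 0.47 (0.19 to 0.76), 0.31 (0.02 to 0.61) and -0.17 (-0.50 to 0.16). In H3K4me3 their log2 changes were -0.76 (-1.33 to -0.20), -0.03, -0.17 and -0.60 (-1.11 to -0.09). The lower H3K4me3 values at 30 m and 72 h were thus seen in these loops too. Of the upstream loops with at least 20 read pairs, 9 of 16 were 1.5-fold higher in H3K27ac at 30 m, 7 of 11 after 4 h, 5 of 9 after 16 h and 3 of 9 after 72 h, beside 27.1%, 20.8%, 35.2% and 31.0% of all loops tested. One loop was lower at 30 m, 1 at 16 h and 1 at 72 h, beside 14.3%, 14.2% and 15.0% of all loops tested. In H3K4me3, 0 of 3, 3 of 8, 1 of 5 and 0 of 3 were higher, beside 12.7%, 30.8%, 18.7% and 8.56% of all loops tested, and 1 was lower at 30 m, 2 at 4 h and 2 at 16 h, where 12.9%, 11.0% and 9.06% of all loops tested were lower.

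The other loops of the partner bins were set beside those with the canonical start. The ARBS bin had 5, of which 1 was the 5 kb loop to the upstream start of FKBP5 described above. The 4 that reached neither start had a summed H3K27ac contact of 4.70, 10.6, 10.5, 6.37 and 7.10, from 16, 59, 49, 30 and 27 read pairs. They were thus higher than at 0 m at 30 m and at 4 h, with log2 changes of 1.18 (0.36 to 2.07) and 1.15 (0.32 to 2.07). At 16 h and 72 h the changes were 0.44 (-0.48 to 1.41) and 0.60 (-0.35 to 1.59), within counting error. In H3K4me3 the same 4 loops had 2.82, 5.12, 3.41, 2.51 and 4.67, with no change beyond counting error. Over all partner bins, the 264 loops to other anchors had H3K27ac log2 changes of 0.52, 0.20, 0.39 (0.28 to 0.49) and 0.10, and the 235 of them that reached neither FKBP5 start, a choice made after seeing the data, had 0.31 (0.19 to 0.43), -0.04, 0.16 (0.04 to 0.28) and -0.002. The higher value at 16 h rests on the bin of the BRPF3 promoter, as the 205 loops without it had 0.16 (0.03 to 0.29), -0.05, -0.15 (-0.30 to -0.01) and -0.18.

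No tested promoter within 500 kb had a higher H3K27ac log2 change than FKBP5 at any time. In H3K4me3, 5, 0, 7 and 6 of 11 tested ones did at 30 m, 4 h, 16 h and 72 h. Of the 17 protein-coding genes with a start within 500 kb, 10 had enough read pairs in H3K27ac, the mark of the values below. At 16 h 1 was at least 1.5-fold higher, ARMC12, at 0.66 on the log2 scale, and 1 was lower, TEAD3, at -0.98 (-1.47 to -0.50), with a median of 0.03. TEAD3 was also at -0.95 at 72 h, and in size both of its changes exceeded those of FKBP5. Over all promoters tested 18.5% were higher and 7.96% lower at 16 h, and 17.9% and 5.81% at 72 h. ARMC12, which encodes an armadillo repeat protein, starts next to the upstream start of FKBP5 and also had 0.89 at 30 m and 0.60 at 4 h. Of its 6 loops, 2 reached an FKBP5 start and held 64 of its 81 H3K27ac read pairs at 0 m and 162 of 177 at 16 h, and the other 4 changed by -0.65 (-1.75 to 0.44) at 16 h. Of the promoters that FKBP5 loops reach, RPL10A changed by -0.18, FANCE by -0.53, ZNF76 by 0.04, DEF6 by 0.02 and SRPK1 by 0.23 at 16 h. BRPF3, the farthest partner upstream and beyond the 500 kb of the neighbours, changed in H3K27ac by 0.99 (0.69 to 1.29), 0.06, 1.32 (1.02 to 1.62) and 0.79 over the 4 times, higher than FKBP5 at 30 m, 16 h and 72 h, though the intervals overlap.

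FKBP51 works with HSP90, and the genes of the steroid receptor chaperone system and of the FKBP family were set beside it. Of 24 chaperone and receptor genes, 21 had enough read pairs in H3K27ac. At 16 h 6 of the 21 were at least 1.5-fold higher and 0 lower, with a median log2 change of 0.01 beside 0.16 over all promoters and 18.5% of promoters higher. The other times had fewer, with 3 higher and 1 lower of the 21 at 30 m, beside 18.8% and 3.21% of promoters, none at 4 h, beside 3.71% and 1.07%, and 3 higher and 1 lower at 72 h, beside 17.9% and 5.81%. The 6 at 16 h were the HSP90 gene HSP90AB1 (0.77), the cochaperones PTGES3 (0.73) and STIP1 (0.69), the HSP70 genes HSPA8 (1.16) and HSPA1B (1.27), and the HSP40 gene DNAJA2 (1.03), of which the last 3 exceeded FKBP5. HSPA1B had 1 loop, and its near-identical copy HSPA1A had 0, so reads of this pair are uncertain. FKBP4 encodes FKBP52, a close relative of FKBP51 in these complexes. Its H3K27ac log2 changes over the 4 times were -0.21, 0.18, -0.49 and 0.18, none of them past 1.5-fold. Of the 16 genes of the FKBP family, in which FKBP4 is counted too, 13 had enough read pairs, and at 16 h 0 were higher and 2 lower, FKBP9 (-0.72) and FKBP11 (-1.09), beside the 18.5% and 7.96% of all promoters. At 30 m 2 were higher, FKBP8 (0.65) and FKBP10 (0.69), and 1 was lower, FKBP1A (-1.08), beside 18.8% and 3.21% of all promoters, and at 4 h and 72 h 0 were higher or lower. None of the 13 had a higher H3K27ac log2 change than FKBP5 at any time. In H3K4me3, 9, 2, 8 and 6 of 14 tested family genes had a higher log2 change than FKBP5 at 30 m, 4 h, 16 h and 72 h. Of 21 tested chaperone and receptor genes, 20, 2, 14 and 11 did.

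**Figure D4:**
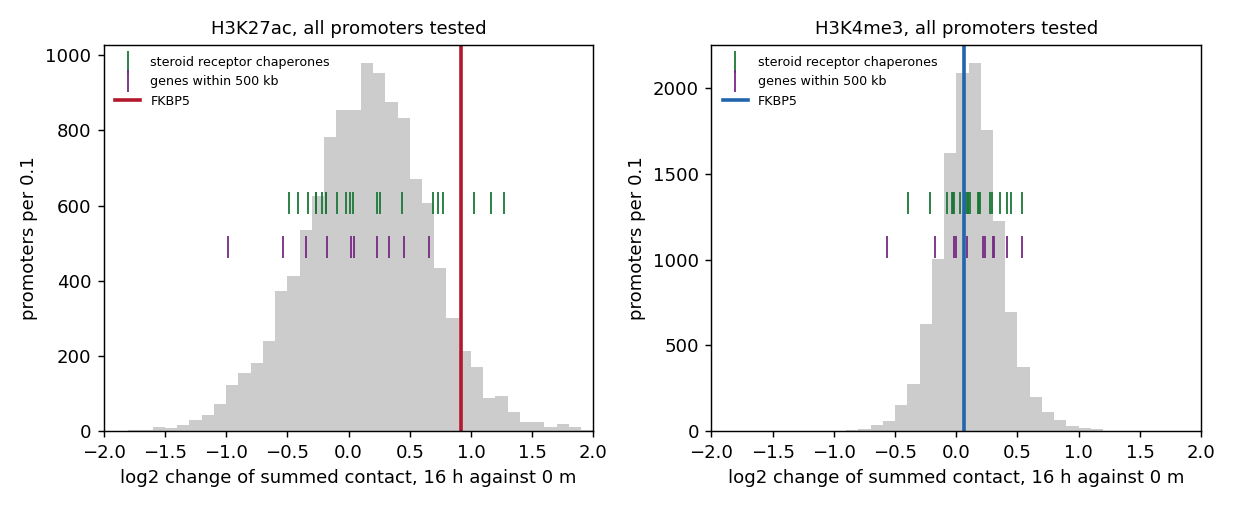
Number of promoters (y axis) by log2 change of summed contact at 16 h against 0 m (x axis), in H3K27ac (left) and H3K4me3 (right), with FKBP5 as a line and the tested chaperone genes and genes within 500 kb as ticks. FKBP5 lies at 0.92 in H3K27ac, to the right of all neighbours and of all but 3 chaperone genes, and at 0.06 in H3K4me3, near the middle.

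The promoters whose 8 log2 changes were most like those of FKBP5 were found among 8585 with at least 50 read pairs in each table and no loop in common with it. Likeness was the root mean square difference over the 8 changes, whose median over these promoters was 0.51. The closest were C17orf67 and DGKE, a pair of neighbours on chromosome 17 with the same 33 loops, at 0.10. DHODH followed at 0.11, CBY3 at 0.14 and EPOR at 0.15. DGKE encodes a diacylglycerol kinase, DHODH an enzyme of pyrimidine synthesis and EPOR the erythropoietin receptor. C17orf67 and DGKE had H3K27ac changes of 0.86, 0.42, 0.89 and 0.82 and a H3K4me3 change of 0.66 at 4 h.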

How the data were processed

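Contact was measured by HiChIP in LNCaP cells, for H3K27ac (2 samples labelled per time point) and H3K4me3 (1). The authors used Trim Galore 0.5.0 for trimming and HiC-Pro 3.1.0 with Bowtie2 for mapping to hg19, merged the time points of each mark and called loops in 5 kb bins at q under 0.01. The 10 deposited tables hold contact signal for the same 574817 rows, TMM scaled by the authors among time points; whether both H3K27ac samples entered a value is not given in the sources used here. All values were whole multiples (tolerance 0.01) of the value of 1 read pair, by which read pairs were recovered.

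Loops were counted once per anchor pair (505995) and matched to Gencode 44 starts lifted to GRCh37. Ratios have exact conditional binomial and sums exact Poisson intervals, at 95%. Only the ratio intervals were tried on simulated data, as independent Poisson counts of promoters above a minimum of expected read pairs. That trial cannot show how they cover sparser loops or read pairs that are not independent. Sequences were read from GRCh37 and the guides from the study's list. Named loops were the 8 of highest mean contact relative to each table's mean and those holding an ARBS guide; other loops named were chosen after their values were seen. The gene, the lists and the tests were chosen with earlier results of these data known. Scaling, length, window, loop set and minimum were varied. Computations used scipy 1.17.1, pandas 2.3.3, numpy 2.4.6 and Python 3.11.15.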

Additional observations from a re-analysis of the deposited data

Results flagged for a closer look

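The log2 changes of the marks at FKBP5 had opposite signs at several times, and the differences were not tested, as each mark had 1 value per time point. The H3K4me3 change exceeded counting error in 2 of the 5 cases, those of the upstream start at 30 m and 72 h. At the canonical start the H3K27ac log2 change exceeded that of H3K4me3 by 1.04 at 30 m (0.90 and -0.14) and by 0.996 at 72 h (0.70 and -0.29). At the upstream start the difference was 1.41 at 30 m (0.92 and -0.48), 1.04 at 16 h (0.85 and -0.19) and 0.89 at 72 h (0.35 and -0.54). All changes of a mark share its value at 0 m, and the H3K27ac sum of the canonical start at 0 m rests on 76 read pairs.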

How the results depend on the processing

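Of 123 alternative values, 103 were counted as staying, 17 as moved and 3 as reversed. A change or share stayed within the counting interval of the value reported, a count within 1.5 times it, and a Gini index if equal at 2 decimals. Reversal was counted only where the reported interval excluded 0. The H3K4me3 change at 16 h, 0.06, thus counts as staying though it was -0.07 with equal totals. The 1 kb window and the whole 5 kb bin held the same 22 loops, as did the minimum of 10 read pairs in H3K4me3. These alternatives could not move, yet are among the 103 and, for the windows, the 48 below. Of the 48 alternatives to the H3K27ac change of the canonical start none turned the direction. With the median over loops (pseudocount 1) its change was 0.31 at 30 m, 0.00 at 16 h and 0.22 at 72 h, and that of H3K4me3 at 4 h was 0.26. Without the 2 strongest loops the H3K27ac change at 16 h was 0.41, and with any annotated start the H3K4me3 change at 4 h was 0.28. At 2-fold 0 of 6 H3K4me3 loops were called at 16 h, where 6.50% of all loops were higher and 2.21% lower, and with 10 read pairs 7 of 12 were, 5 higher and 2 lower, beside 26.5% and 12.9% of all loops. The Gini index was 0.68 (H3K27ac) and 0.48 (H3K4me3) at 0 m, and 0.59 and 0.49 over loops called in that mark. The upstream start changed in H3K27ac at 16 h by 0.61 with equal totals and by 0.41 over loops of at least 20 kb, and the partner bins' other loops by 0.14 and 0.16. Over those to neither FKBP5 start, an alternative chosen after seeing the data, the H3K27ac change was 0.16, and -0.15 when the BRPF3 bin was also left out. The H3K4me3 change of all 264 other loops of the partner bins, 0.12, was -0.019 with equal totals. The ARMC12 change of 0.66 was -0.65 over its loops to neither FKBP5 start, also chosen after seeing the data. The cause of these moves was not tested. No paired analysis was possible because each mark had 1 value per loop and time point, and no replicate could be left out. Depth limits single loops: the third loop's H3K27ac change of 1.19 at 16 h had an interval of -0.19 to 2.81.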
